A study of Rattus norvegicus with 3 samples.

Results

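The genes described here encode developmental transcription factors of 16 families, namely the 4 Hox clusters and the Dlx, Msx, sine oculis, Pax, Tbx, Lhx, Pitx, Prrx, Meox, Meis, Pbx and Nkx genes. The rule used rat gene symbols and no measured value. A member is any gene with such a symbol and a number for which at least 1 non-control probe of the array could be named. This gave 62 members among the 13351 genes named on the array. The gene table lists 112 genes of these families, and the other 50 had no probe named here and were not analysed. Of the 62 members, 37 were well above background on at least 1 array by the call of the scanner software, 24 on no array, and Hoxd10 was left out because its spot on 1 array was called non-uniform.

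Homeobox, paired-box and T-box genes encode DNA-binding proteins that give cells of the embryo their position and identity. The Hox genes lie in 4 clusters and are switched on in the order of their place in the cluster, so that neighbouring genes mark successive levels of the body axis and of the limb. Connective tissue and bone cells of different body sites are known to keep part of this positional expression in culture, while Msx, Dlx, Pitx, Prrx and T-box factors shape the limb and face skeleton, and Pbx and Meis proteins bind DNA together with Hox proteins.

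Expression was measured in rat mesenchymal stem cells (MSCs), in the osteosarcoma line COS1NR and in the malignant fibrous histiocytoma (MFH) line MFH1NR, all from the inbred F344 strain. The MSCs were obtained from femoral bone marrow as cells that grow attached to plastic, were not sorted by surface markers, and were kept in medium with more serum than the lines. COS1NR and MFH1NR are established lines from tumours that were induced in F344 rats with the chemical carcinogen 4-HAQO, and according to the methods both carry a p53 mutation. Age and sex of the animals are not given in the sources used here, and each tumour type was represented by 1 line.

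One array was hybridised for each cell type, so there was no replicate and no difference could be tested. The arrays of COS1NR and MFH1NR lay on 1 slide and were scanned together, while that of MSCs lay on another slide, and slide and cell type therefore cannot be told apart where MSCs are compared. Intensities are given as deposited, in the arbitrary units of the scanner, and fold differences were computed after each array was divided by its own 75th percentile, namely 589, 774 and 994 for MSCs, COS1NR and MFH1NR. The share of spots well above background lay between 56.6% and 59.7% on the 3 arrays. A ratio of 2 single spots had a spread of 0.07 on the log2 scale between repeat spots within an array, which leaves out the spread between cultures. Of the members, 54 had 1 probe and 8 had several. Where 1 of the 2 arrays compared had no signal well above background for a probe, the fold is a bound, written as "at least". Values given in a row without names stand for MSCs, COS1NR and MFH1NR, in this order. Values of different genes were not set against each other, since probes differ in brightness.

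Markers of other cell types moved along with the comparison. All 10 macrophage markers on the list were at least 2-fold lower in both sarcomas than in MSCs, against 12.9% of all genes. Their summed level, in units of the 75th percentile, came to 111, 12.3 and 4.80 for MSCs, COS1NR and MFH1NR. The defining leukocyte and macrophage markers Ptprc, Itgam, Fcgr3a and Adgre1 were well above background in MSCs and in neither sarcoma, a pattern of 5.87% of all genes. Fibroblast and mesenchymal markers were well above background for 10 of 10 genes in MSCs and for 8 of 10 in each sarcoma. The shares over all genes used were 92.6% in MSCs, 87.3% in COS1NR and 88.5% in MFH1NR. The summed levels of these markers were 1059, 133 and 279 in MSCs, COS1NR and MFH1NR. At least 2-fold lower than in MSCs were 9 of these 10 in COS1NR and 6 in MFH1NR, against 20.0% and 21.6% of all genes. Their median log2 ratios were -4.39 and -2.25. The log2 ratio of COS1NR to MSCs was -0.33 for the collagen gene Col1a1 and -9.09 for Col1a2. These sums weigh bright probes most and include probes below the background limit, so they serve only to set the arrays side by side. Of the osteoblast list, Runx2 had no probe named, and Sp7, which encodes the factor osterix, was not well above background in COS1NR at an intensity of 6.34, nor in MSCs at 7.26, but was so in MFH1NR at 108. The summed level of 5 osteoblast markers was 14.1, 1.99 and 2.87 in MSCs, COS1NR and MFH1NR, and 4, 3 and 4 of them were well above background. In COS1NR 0 of the 5 were at least 2-fold higher than in MSCs and 3 were lower, against 20.6% and 20.0% of all genes. In MFH1NR 1 was higher, namely Sp7, and 3 were lower, against 19.3% and 21.6%. Sp7 thus differed in direction from most of this list. Of 4 adipocyte markers, all were well above background in MSCs and 3 in COS1NR, which had sums of 1.65 and 37.7, while MFH1NR had 0 of them above the limit. Of the named T cell, neutrophil, endothelial and skeletal muscle markers, 2 of 5, 2 of 4, 2 of 5 and 4 of 5 were well above background on at least 1 array, against 75.3% of the 13301 genes measured. Cd3d, Kdr, Des, Acta1 and Myh3 were so on all 3 arrays, Lck, Camp and Cdh5 in MSCs and COS1NR, S100a8 in COS1NR alone and Myog in MFH1NR alone. The other named genes of these lists, Cd3e, Elane, Pecam1 and Myod1 among them, were below that limit throughout. In bulk RNA, fewer cells of a type and less RNA per cell cannot be told apart, and the part of other cells in the differences below was not tested.

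The promoters of 6 members are shown because these genes stand for 6 of the 7 ways in which members were distributed over the arrays. Each is the member with the largest difference between arrays among those of its pattern that have a promoter in the RefSeq table, and the 250 bases before the gene start are printed from 5′ to 3′ on the strand of the gene (build GRCr8). Msx2 was well above background in MSCs alone, Hoxd13 in COS1NR alone and Hoxa2 in MFH1NR alone. Nkx2-3 was so in both sarcomas, Tbx18 in MSCs and COS1NR, and Meis3 on all 3 arrays. Capitals mark matches, on either strand, to the homeodomain core TAATTA, the TGACAG site bound by Meis-type proteins, the GC box GGGCGG and the TATA box TATAAA.
Msx2, chr17:11102034-11102283, plus strand: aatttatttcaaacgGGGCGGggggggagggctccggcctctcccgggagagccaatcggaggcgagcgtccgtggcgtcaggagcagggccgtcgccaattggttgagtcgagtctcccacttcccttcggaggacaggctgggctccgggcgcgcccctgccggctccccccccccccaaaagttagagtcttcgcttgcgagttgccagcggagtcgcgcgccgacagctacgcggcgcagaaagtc
Hoxd13, chr3:79977827-79978076, plus strand: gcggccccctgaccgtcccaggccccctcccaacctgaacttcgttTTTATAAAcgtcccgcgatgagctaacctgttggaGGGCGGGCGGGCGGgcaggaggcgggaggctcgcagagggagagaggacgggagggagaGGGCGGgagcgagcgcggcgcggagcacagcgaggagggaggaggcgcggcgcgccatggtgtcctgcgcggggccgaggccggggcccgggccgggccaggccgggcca
Hoxa2, chr4:82595693-82595942, minus strand: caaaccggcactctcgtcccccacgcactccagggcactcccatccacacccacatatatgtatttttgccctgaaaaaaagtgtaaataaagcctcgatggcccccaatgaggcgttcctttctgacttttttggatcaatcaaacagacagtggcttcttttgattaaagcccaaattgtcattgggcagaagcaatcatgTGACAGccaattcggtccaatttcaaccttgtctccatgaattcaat
Nkx2-3, chr1:252427106-252427355, plus strand: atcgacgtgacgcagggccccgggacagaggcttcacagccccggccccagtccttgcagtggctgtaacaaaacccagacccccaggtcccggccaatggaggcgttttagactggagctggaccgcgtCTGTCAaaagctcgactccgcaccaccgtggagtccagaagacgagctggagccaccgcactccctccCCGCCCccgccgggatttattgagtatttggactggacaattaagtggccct
Tbx18, chr8:97559966-97560215, minus strand: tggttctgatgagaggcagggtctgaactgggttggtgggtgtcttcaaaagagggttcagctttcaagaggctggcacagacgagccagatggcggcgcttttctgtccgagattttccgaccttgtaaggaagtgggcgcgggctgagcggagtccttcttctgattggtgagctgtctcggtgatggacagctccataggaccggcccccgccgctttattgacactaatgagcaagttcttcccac
Meis3, chr1:85989800-85990049, plus strand: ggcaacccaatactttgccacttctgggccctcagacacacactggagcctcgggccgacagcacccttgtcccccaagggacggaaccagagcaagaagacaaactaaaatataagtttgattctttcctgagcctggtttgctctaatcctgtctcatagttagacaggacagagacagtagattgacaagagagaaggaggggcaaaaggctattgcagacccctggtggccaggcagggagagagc

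Matches differed among these 6 promoters. That of Msx2 held 1 GC box, which began 235 bases before the gene start. That of Hoxd13 held 4 GC boxes, of which the 3 that began 169, 165 and 161 bases upstream overlap each other, and 2 TATA boxes that overlap on opposite strands. Hoxa2 had a TGACAG match 47 bases upstream, and Nkx2-3 had one on the reverse strand 120 bases upstream and a GC box 52 bases upstream. None of the 4 motifs was found in the windows of Tbx18 and Meis3. A promoter was listed for 41 of the 62 members, and these were compared with all 27457 promoters of the same length in the table. The GC box occurred in 53.7% of member promoters and in 32.3% of all promoters, and TGACAG in 29.3% and 15.6%. TAATTA was found in 1 member promoter (2.44%, against 4.93% of all promoters), and TATAAA in 9.76% against 13.1%. Among the 23 promoters of members well above background on at least 1 array, TGACAG was found in 13.0%, which is below its share in all promoters, and the GC box in 56.5%. Member promoters had a median of 15 CG dinucleotides in 250 bases, against 6 in all promoters, and a median GC content of 62%, against 52%. A match is a description of the letters and not a site.

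The 37 members above background were 60.7% of the 61 measured, against 75.3% of all genes. MSCs had 25 of the 37 well above background (67.6%), COS1NR 29 (78.4%) and MFH1NR 25 (67.6%), against 92.6%, 87.3% and 88.5% of the 10010 genes used. The 16 members that were so on all 3 arrays (43.2%) included Dlx1, Hoxa7, Hoxb7, Hoxc4, Hoxc5, Lhx2, Meis3, Msx1, Pax2, Pbx2, Pbx3, Pitx1, Pitx3 and Prrx1, while 79.2% of the 10010 genes used had this pattern. The remaining 21 members (56.8%) were not well above background on at least 1 array, against 20.8% of all genes. Dlx3, Msx2 and Tbx22 were well above background in MSCs alone (8.11% of members, 5.87% of all genes). Dlx4, Hoxb13, Hoxd13 and Pax3 were so in COS1NR alone (10.8%, against 1.87%), and Hoxa2, Hoxb9, Pax6 and Pbx4 in MFH1NR alone (10.8%, against 3.0%). Both sarcomas but not MSCs had 4 members, Hoxd4 and Nkx2-3 among them (10.8%, against 2.50%). MSCs and COS1NR shared Meox2, Msx3, Six4, Tbx18 and Tbx3 (13.5%, against 3.72%), and MSCs and MFH1NR shared Dlx5 (2.70%, against 3.81%). A gene entered these counts by being bright on at least 1 array, for members and all genes alike, and the shares are descriptions of 3 arrays.

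**Figure D1:**
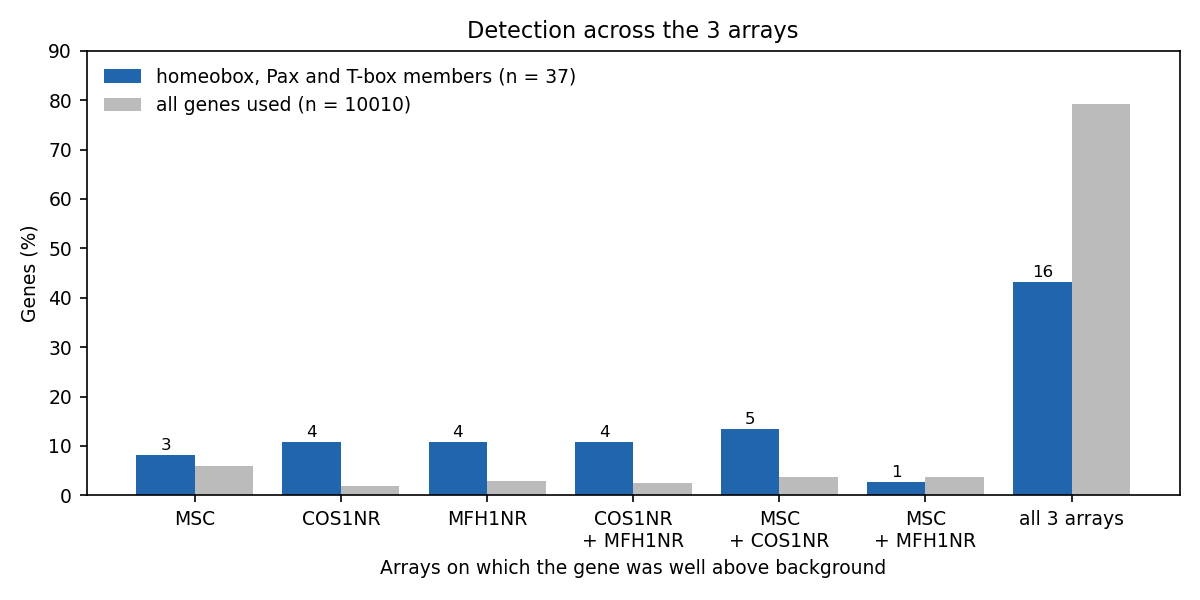
Share of genes, in percent on a linear axis from 0, that were well above background on each combination of the 3 arrays, for the 37 members (blue, number of members above each bar) and for the 10010 genes used (grey). Members reached 43.2% in the class of all 3 arrays, where all genes reached 79.2%.

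Of the members well above background in MSCs, 84% were also so in COS1NR and 68% in MFH1NR, where the share over all genes was 89.6% for either line. Between the sarcomas, 20 members were shared, which is 69.0% of those in COS1NR and 80% of those in MFH1NR, against 93.6% and 92.3% of all genes. Since the detection call is tied to the brightness of a probe, members were also counted within ranges of the highest log2 level of a probe on the 3 arrays, relative to the 75th percentile. Among genes with a level above 1, 3 of 8 members (37.5%) were below the limit on at least 1 array, against 4.81% of all genes. In the range from -1 to 1, 7 of 13 members (53.8%) were so, against 13.4%. Below these levels the shares were 55.6% of 9 members against 31.3%, and 85.7% of 7 members against 74.7%.

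In COS1NR against MSCs, 33 members had a ratio or a bound. Of these, 15 (45.5%) were at least 2-fold higher in COS1NR, against 20.6% of all genes, and 9 (27.3%) were at least 2-fold lower, against 20.0%. Together 24 members (72.7%) were past 2-fold, against 40.6%, and 12 of the 33 values were bounds. A bound can only point towards the array that showed the gene, for members and all genes alike. Nothing is read from the direction of bounds in these counts. In MFH1NR against MSCs, 11 of 33 members (33.3%) were higher, against 19.3% of all genes, and 12 (36.4%) were lower, against 21.6%. These 23 members made up 69.7%, against 40.9%, and 16 of the 33 values were bounds. In MFH1NR against COS1NR, which lay on 1 slide, 9 of 34 members (26.5%) were higher in MFH1NR, against 12.4%, and 13 (38.2%) were lower, against 15.1%. That sums to 22 members (64.7%), against 27.5%, with 14 bounds. The median absolute log2 ratio of members was 1.70, 1.59 and 1.63 in the 3 comparisons, and that of all genes 0.81, 0.80 and 0.57. The median signed log2 ratio of members was 0.90 for COS1NR against MSCs, 0.04 for MFH1NR against MSCs and -0.31 for MFH1NR against COS1NR, where all genes had 0.11, 0.02 and -0.09. Without scaling between arrays, the median of all genes shifted to 0.52, 0.79 and 0.27, and the median of members for MFH1NR against COS1NR turned to 0.05. Without scaling, COS1NR had 17 members higher and 8 lower than MSCs, MFH1NR had 16 higher and 10 lower than MSCs, which turns the balance of the latter, and 10 were higher and 13 lower in MFH1NR than in COS1NR. The calls over all genes depend on the scaling as well, with 2004 higher and 1941 lower for COS1NR against MSCs after scaling but 3159 and 1433 without it. For MFH1NR against MSCs these were 1900 and 2122 against 4062 and 1273, and for MFH1NR against COS1NR 1171 and 1420 against 1871 and 958.

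A total of 7 of 37 members (18.9%, against 10.8% of all genes) exceeded MSCs by 2-fold or more in both lines, namely Hoxa7, Hoxb7, Hoxc4, Hoxd4, Nkx2-3, Pbx2 and Pitx3. With another background correction, normexp, 4 of these remained, namely Hoxa7, Hoxb7, Nkx2-3 and Pbx2, and without scaling there were 10. Another 8 (21.6%, against 12.9%) were at least 2-fold lower in both, namely Dlx3, Dlx5, Meox2, Msx2, Pitx1, Prrx1, Tbx22 and Tbx3. Without scaling 6 of these remained, as Pitx1 and Prrx1 dropped out, and with median scaling 7 remained, without Pitx1. Six4 was past 2-fold in opposite directions (2.70%, against 2.24%). Both comparisons share the MSC array, so a low or high value in MSCs moves both ratios. Hoxd4 and Nkx2-3 were below the limit in MSCs and could only be called higher in the sarcomas. Dlx3, Msx2 and Tbx22 were seen in MSCs alone and could only be called lower. Nothing is read from the direction of these genes, and the shares over all genes hold such genes as well.

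**Figure D2:**
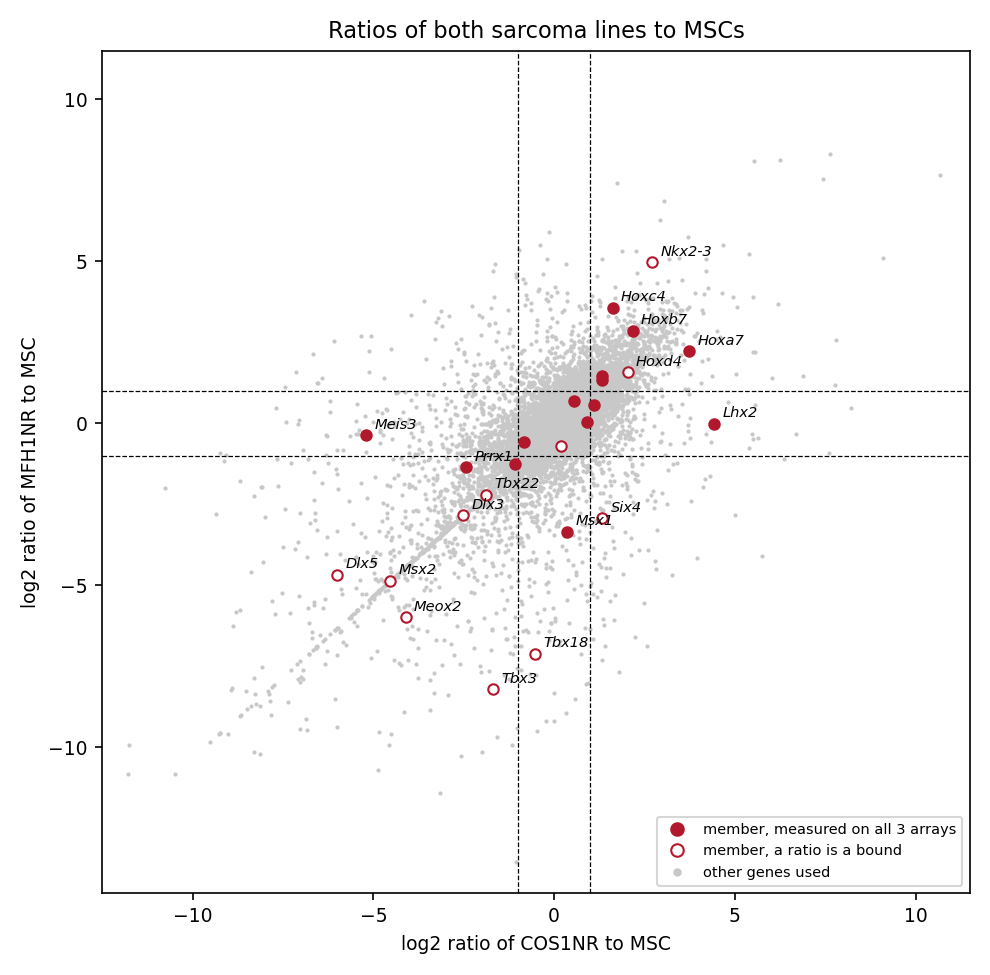
Log2 ratio to MSCs of COS1NR (horizontal axis) and of MFH1NR (vertical axis) for 9453 genes with both values, with 25 of the 29 members among them in red (filled where the gene was well above background on all 3 arrays, open where a ratio is a bound) and dashed lines at 2-fold. Tbx3 and Tbx18 lay low on the vertical axis, Lhx2 far right near no change in MFH1NR, and the grey diagonal holds genes that were above background in MSCs alone and have a bound in both sarcomas.

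The Hox genes were the largest group, with 14 members, of which 9 were used. Of these 9, 4 were well above background in MSCs and 7 in each sarcoma, where the shares over all genes were 92.6% in MSCs, 87.3% in COS1NR and 88.5% in MFH1NR. The 5 that were below the limit in MSCs, namely Hoxa2, Hoxb9, Hoxb13, Hoxd4 and Hoxd13, entered through a sarcoma array and could only be called higher there, so nothing is read from their direction. Of the 4 measured on all 3 arrays, Hoxa7, Hoxb7 and Hoxc4 exceeded MSCs by 2-fold or more in both sarcomas, and Hoxc5 did so in neither. The share over the 10010 genes used was 10.8%, a base that also holds genes with bounds and so is unlike that of these 4. Hoxa7, a gene of the middle of the HoxA cluster that marks the trunk, measured 65.8 in MSCs, 1155 in COS1NR and 516 in MFH1NR. It was 13.4-fold higher in COS1NR and 4.65-fold higher in MFH1NR than in MSCs, and 2.88-fold lower in MFH1NR than in COS1NR. Hoxa7 was thus lowest in MSCs and highest in COS1NR. Hoxb7, its counterpart in the HoxB cluster, had 79.9 in MSCs, 472 in COS1NR and 977 in MFH1NR. It was 4.50-fold and 7.25-fold higher in the sarcomas than in MSCs, and 1.61-fold higher in MFH1NR than in COS1NR. Hoxc4, a gene of the neck and upper trunk level, measured 53.6, 217 and 1077 in MSCs, COS1NR and MFH1NR. It was 3.08-fold higher in COS1NR and 11.9-fold higher in MFH1NR than in MSCs, and 3.87-fold higher in MFH1NR than in COS1NR. The order of the sarcomas for Hoxb7 and Hoxc4 was thus opposite to that for Hoxa7. Hoxd4, of the same paralogue group as Hoxc4, had 5.14 in MSCs, not well above background, 96.6 in COS1NR and 91.2 in MFH1NR. Against MSCs it was higher by at least 4.09-fold in COS1NR and by at least 3.0-fold in MFH1NR, and the sarcomas differed by -0.45 on the log2 scale. With normexp correction these log2 differences of Hoxd4 came to 0.83 and 0.53, and that of Hoxc4 in COS1NR to 0.86.

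Other Hox genes were bright in 1 sarcoma and near background elsewhere. Hoxa2, which patterns the hindbrain and pharyngeal arches, had 9.89 in MSCs and 14.9 in COS1NR, both not well above background, and 1065 in MFH1NR. It was at least 35.1-fold higher in MFH1NR than in MSCs and at least 28.2-fold higher than in COS1NR. Hoxb9, a thoracic gene, had 12.7 in MSCs, 22.6 in COS1NR and 177 in MFH1NR, so that MFH1NR exceeded MSCs by at least 5.82-fold and COS1NR by at least 4.68-fold. These were the Hox genes seen in MFH1NR alone. Hoxb13, the most posterior gene of the HoxB cluster and a known marker of prostate and distal gut, had 4.11 in MSCs, 621 in COS1NR and 6.21 in MFH1NR. It was at least 26.3-fold higher in COS1NR than in MSCs and at least 26.5-fold higher than in MFH1NR. Hoxd13, the most posterior gene of the HoxD cluster, which patterns the digits, had 4.14 in MSCs and 6.20 in MFH1NR, both near background, and 176 in COS1NR, and the level in COS1NR exceeded the value in MSCs by at least 7.46-fold and that in MFH1NR by at least 7.53-fold. The Hox genes seen in COS1NR alone were thus both of paralogue group 13, of which no other gene had a named probe. Only 14 of the 39 Hox genes in the gene table had one, so nothing is read about posterior Hox genes as a group. Hoxc5 was above background on all 3 arrays at 22.7, 56.4 and 39.3, and its log2 ratios were 0.92, 0.04 and -0.88 for COS1NR against MSCs, MFH1NR against MSCs and MFH1NR against COS1NR. It thus stayed under 2-fold in each comparison as scaled here, but its log2 ratio of COS1NR to MSCs was 1.31 without scaling, 1.08 with median scaling and 1.04 with quantile normalization, which are past 2-fold. Hoxb3, Hoxc12 and Hoxd1 were not well above background on any array, and Hoxd1 was so at both of its probes.

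**Figure D3:**
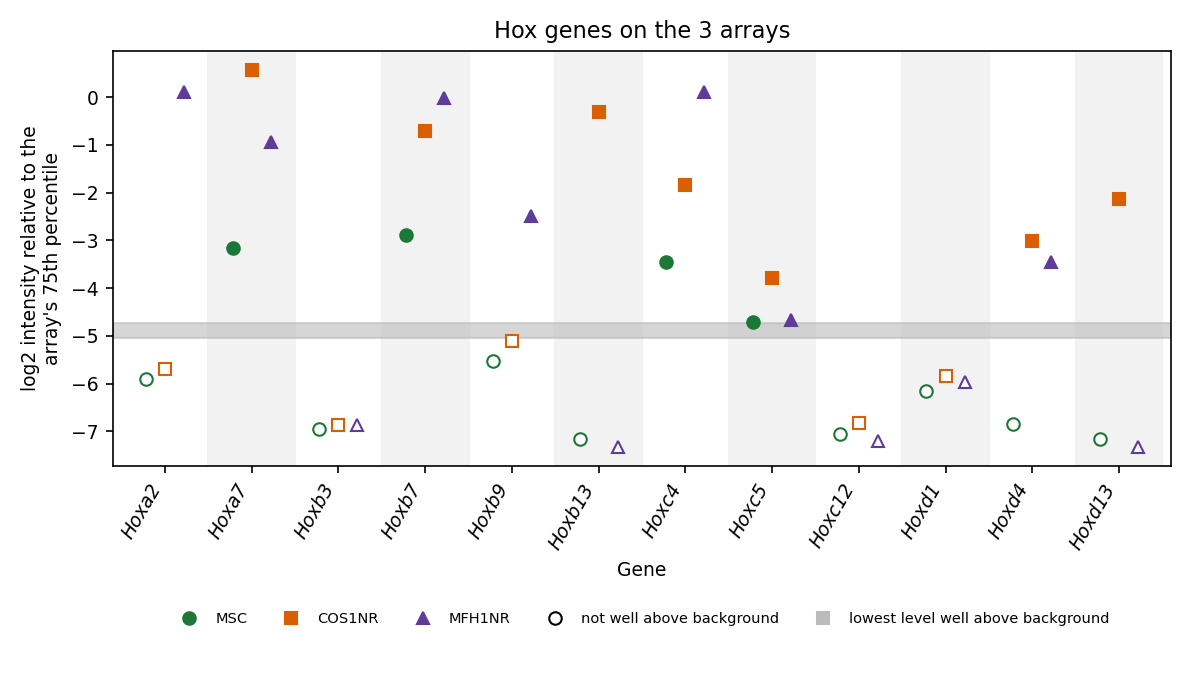
Log2 intensity relative to the 75th percentile of the array (linear axis of log2 units) for 12 Hox genes in MSCs (circles), COS1NR (squares) and MFH1NR (triangles), with open symbols where the probe was not well above background and a grey band at the lowest level well above background on the 3 arrays. Points compare cell types within a gene, and Hoxa7, Hoxb7 and Hoxc4, with filled symbols on all 3 arrays, stood lowest in MSCs.

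Among the cofactors of Hox proteins, all 4 Pbx members and the only Meis member, Meis3, had a probe above background. Over all genes, 75.3% were so on at least 1 array. Pbx2, a partner of many Hox proteins, had 520.5, 1706 and 2402 in MSCs, COS1NR and MFH1NR, and was 2.50-fold higher in COS1NR and 2.73-fold higher in MFH1NR than in MSCs. Pbx3 stood at 1542, 1141 and 1745, with log2 ratios of -0.83 in COS1NR and -0.58 in MFH1NR against MSCs. Its second probe gave -1.42 and -1.19 and a further one -0.93 and -0.82, so as scaled here the direction was shared by 3 probes while the 2-fold line was crossed by 1 of them. Without scaling, the ratio of MFH1NR to MSCs at the probe used turned to 0.18. Pbx4 was well above background in MFH1NR alone, at 50.7, and its bounds did not reach 2-fold. Meis3, a TALE homeobox partner of Pbx and Hox proteins, had the widest differences of these, with 1147 in MSCs, 40.8 in COS1NR and 1499 in MFH1NR. It was 36.9-fold lower in COS1NR than in MSCs and 28.6-fold higher in MFH1NR than in COS1NR, while MFH1NR and MSCs differed by -0.37 on the log2 scale, which turned to 0.39 without scaling. Meis3 was thus low in the osteosarcoma line and less than 2-fold apart in the other cell types. No probe of the other Meis genes was named here.

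Prrx1, a paired-type factor of limb bud and connective tissue mesenchyme, measured 15630.3 in MSCs, 3817 in COS1NR and 10268 in MFH1NR. It was 5.38-fold lower in COS1NR and 2.57-fold lower in MFH1NR than in MSCs, and 2.09-fold higher in MFH1NR than in COS1NR. Without scaling, its log2 ratio of MFH1NR to MSCs was -0.61. It was thus highest in MSCs and lowest in COS1NR. Msx2, a regulator of osteoblast and calvarial growth, had 517, 6.14 and 6.18, and was at least 23.1-fold and at least 29.0-fold lower in the sarcomas. A second probe of Msx2 gave 325 in MSCs and 7.56 on the array of either sarcoma line, under the background limit. Both probes thus placed Msx2 in MSCs alone. Its paralogue Msx1 had 1439 in MSCs, 2409 in COS1NR and 239 in MFH1NR. It was 10.2-fold lower in MFH1NR than in MSCs and 12.9-fold lower than in COS1NR, while COS1NR and MSCs were 1.27-fold apart. Msx1 was thus low in the MFH line, where Msx2 was low in both lines. Msx3 was dim, at 29.2, 43.9 and 12.3, and its bounds stayed under 2-fold.

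The Dlx genes, which act downstream of BMP signals in branchial arches and osteoblasts, had 4 members with 4 different patterns. Dlx5, an early osteoblast factor, had 1443 in MSCs, 6.11 in COS1NR and 95.3 in MFH1NR. Against MSCs it was lower by at least 64.5-fold in COS1NR and by 25.6-fold in MFH1NR, and MFH1NR exceeded COS1NR by at least 2.52-fold, a log2 bound of 1.34 that fell to 0.89 with normexp. The osteosarcoma line thus had no Dlx5 signal above background. Dlx3 had 128, 20.1 and 10.7, and was lower by at least 5.73-fold in COS1NR and by at least 7.20-fold in MFH1NR. Dlx4 had 8.80, 158 and 13.4, and its value in COS1NR exceeded that in MSCs by at least 6.70-fold and that in MFH1NR by at least 6.76-fold. Dlx4 thus appeared in COS1NR alone, where Dlx3 and Dlx5 were not seen. Dlx1 was above background on all arrays, at 254, 489 and 687, with log2 ratios of 0.55, 0.68 and 0.13, under 2-fold in each comparison after scaling.

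Of the Pitx genes, bicoid-type factors, Pitx1 and Pitx3 differed from MSCs in opposite directions. Pitx1, which specifies the hindlimb, had 1559.6, 969 and 1104, and was 2.11-fold lower in COS1NR and 2.38-fold lower in MFH1NR than in MSCs. Pitx1 was thus highest in MSCs after scaling, but without scaling these log2 ratios were -0.69 and -0.50, and with median scaling that of COS1NR was -0.92. Pitx3 had 32.7, 107 and 138, and was 2.50-fold higher in COS1NR and 2.51-fold higher in MFH1NR than in MSCs. With normexp correction both fell under 2-fold, at 0.40 and 0.27 on the log2 scale.

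The T-box genes had no member above background in MFH1NR. Of 8 members, 3 were above background on at least 1 array, against 75.3% of all genes. All 3 were so in MSCs and 2 in COS1NR, where 92.6% and 87.3% of all genes used were detected, and 88.5% in MFH1NR. Tbx3, a repressor active in limb and mammary development, had 5284 in MSCs, 2135 in COS1NR and 6.46 in MFH1NR, not well above background. It was 3.25-fold lower in COS1NR than in MSCs, and MFH1NR lay at least 297-fold below MSCs and at least 91.2-fold below COS1NR. Tbx18, a factor of mesenchyme around somites, ureter and heart, had 2467, 2243 and 6.06. In MFH1NR it lay at least 138-fold below MSCs and at least 95.8-fold below COS1NR, and it was 1.45-fold lower in COS1NR than in MSCs. Tbx3 and Tbx18 thus separated MFH1NR from both other cell types. The other probes of Tbx18 were not well above background in MFH1NR either. They disagreed on COS1NR against MSCs, with 370 in MSCs and 285 in COS1NR at one, and 5.50 in MSCs, not well above background, and 135 in COS1NR at the other. Tbx22, known for palate formation, had 82.3, 24.2 and 6.35, and against MSCs was lower by at least 3.68-fold in COS1NR and by at least 4.62-fold in MFH1NR. Tbx1, Tbx21, Tbx4, Tbx5 and Tbx6 were not well above background on any array at the probe used.

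Six4 belongs to the sine oculis homeobox genes, relatives of a fly eye gene, which act with Eya cofactors in muscle and sensory organs. It had 136, 450.3 and 7.05 on the arrays of MSCs, COS1NR and MFH1NR. It was 2.52-fold higher in COS1NR than in MSCs, while MFH1NR lay at least 7.63-fold below MSCs and at least 19.2-fold below COS1NR. A second probe of Six4 was not well above background on any array, so these values rest on 1 probe, and with the mean of both probes the log2 ratios to MSCs were 0.74 and -0.53. At the probe used, Six4 was thus highest in COS1NR and lowest in MFH1NR. Six3 and Six6 were not well above background on any array.

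The Pax genes had 3 of 4 members above background on at least 1 array, near the share of 75.3% over all genes. Pax2, a kidney and eye gene, had 93.7, 266 and 234, and was 2.16-fold higher in COS1NR than in MSCs, with 1.48-fold for MFH1NR. Pax3, a factor of neural crest and muscle precursors, was well above background in COS1NR alone, at 74.6, and a second probe gave the same pattern with 66.1 in COS1NR. Its value in COS1NR was at least 3.16-fold above that in MSCs. Pax6, an eye and forebrain gene, was well above background in MFH1NR alone, at 88.1, and was at least 2.90-fold higher there than in MSCs. With normexp correction the log2 ratios to MSCs were 0.70 for Pax2 and 0.59 for Pax3 in COS1NR and 0.61 for Pax6 in MFH1NR, so none of these 3 passed 2-fold. Pax4 was not well above background on any array.

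Lhx2, a LIM homeobox gene of limb bud, forebrain and hair follicle, had 22.2 in MSCs, 625 in COS1NR and 37.3 in MFH1NR. It was 21.4-fold higher in COS1NR than in MSCs and 21.5-fold lower in MFH1NR than in COS1NR, with a log2 ratio of -0.01 between MFH1NR and MSCs that was 0.75 without scaling. It was thus bright in COS1NR and just above the background limit elsewhere, and Lhx1, Lhx4, Lhx5, Lhx6, Lhx8 and Lhx9 were not well above background on any array. Meox2, a mesodermal homeobox gene that restrains growth of vascular cells, had 1129, 85.8 and 6.90. It was 17.3-fold lower in COS1NR than in MSCs, and MFH1NR lay at least 63.4-fold below MSCs and at least 3.67-fold below COS1NR. Meox2 thus descended from MSCs through COS1NR to MFH1NR, and Meox1 was not well above background on any array. Nkx2-3, a factor of spleen and gut mesenchyme, had 4.16, 154 and 955, and exceeded its value in MSCs by at least 6.51-fold in COS1NR and by at least 31.5-fold in MFH1NR. It was also 4.83-fold higher in MFH1NR than in COS1NR. Nkx2-3 was thus the reverse of Meox2 in its order over the cell types. Nkx2-1, Nkx2-5, Nkx6-1, Nkx6-2 and Nkx6-3 were not well above background on any array.

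**Figure D4:**
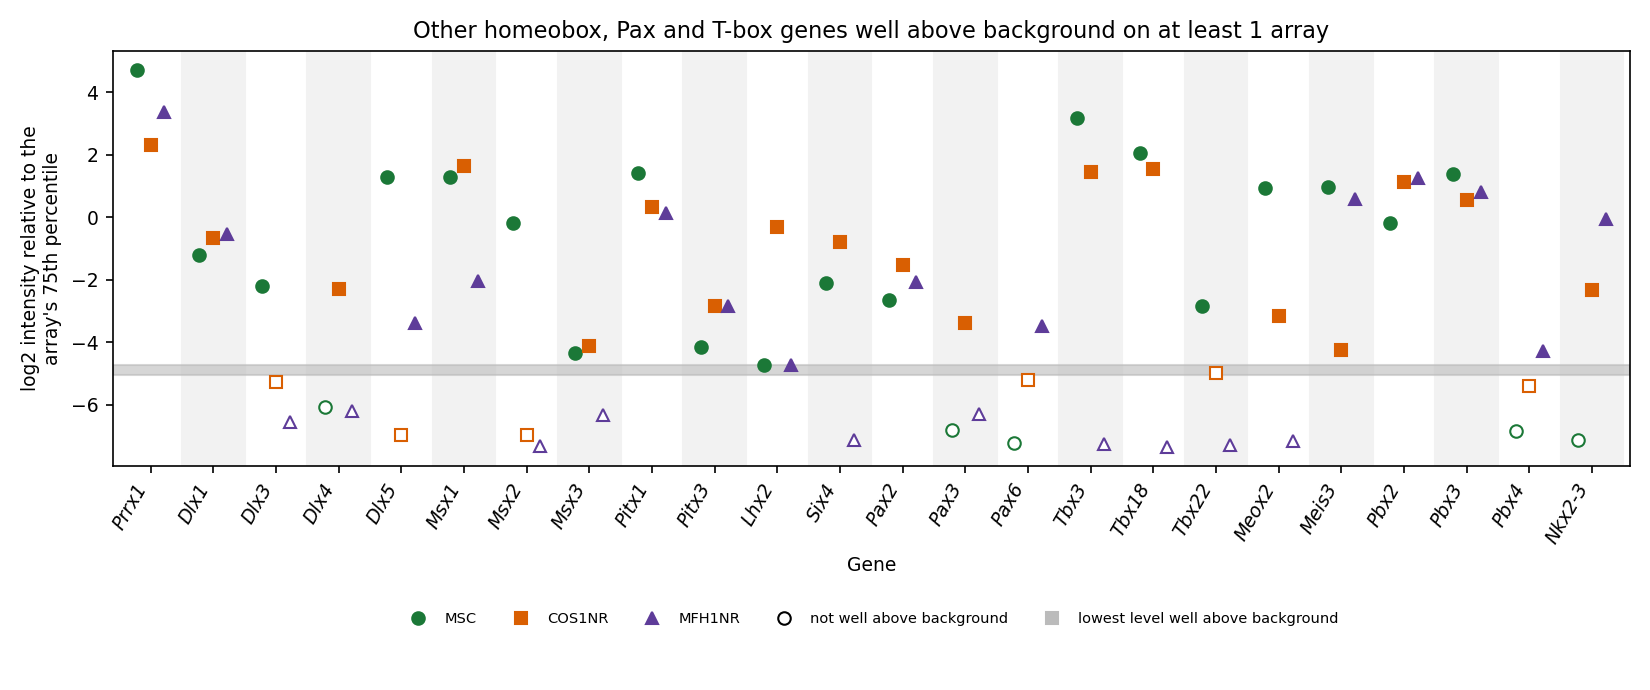
Log2 intensity relative to the 75th percentile of the array for 24 other members well above background on at least 1 array, with symbols as for the Hox genes (open where not well above background, grey band at the background limit). Open triangles for Tbx3, Tbx18 and Meox2 lay below the band, where their MSC circles stood at or above 0.

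Regulators of Hox genes were examined as a list of 38 genes of retinoic acid handling, trithorax and Polycomb chromatin control, of which 28 had a named probe and 22 were used. Of these, 6 were at least 2-fold higher and 6 lower in COS1NR than in MSCs, and 5 and 5 in MFH1NR, beside shares of all genes of 20.6% and 20.0% in COS1NR and 19.3% and 21.6% in MFH1NR. The median log2 ratios were 0.14 and 0.34, where all genes had 0.11 and 0.02. Crabp2, which carries retinoic acid to its receptor, had 4346, 730.0 and 11104 on the arrays of MSCs, COS1NR and MFH1NR, with a log2 ratio of -2.97 for COS1NR against MSCs and of 3.57 for MFH1NR against COS1NR. Cyp26b1, which degrades retinoic acid, stayed under 2-fold. Aldh1a1, Aldh1a2 and Aldh1a3, which make retinoic acid, were not well above background on any array. Among chromatin factors, Kdm6b, a demethylase that removes the Polycomb mark, stood at log2 ratios of -3.49 for COS1NR and -3.87 for MFH1NR against MSCs. Ezh2, the methyltransferase that sets this mark, had 2.31 and 1.68, and Cbx8, a reader of it, 1.94 and 3.19. Phc2, another Polycomb protein, had -2.74 and -1.97, and Ezh1, Eed, Ring1, Phc1 and Cbx7 stayed under 2-fold against MSCs in both lines. Ash2l, a subunit of the opposing methyltransferases, had 2.14 and 2.20. Kmt2a, which maintains Hox expression, had a log2 ratio of -2.19 in COS1NR and of -0.39 in MFH1NR.

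Homeobox genes outside the families above were examined as a list of 54, of which 30 had a named probe and 19 were used. In COS1NR 7 were at least 2-fold higher and 4 lower than in MSCs, against 20.6% and 20.0% of all genes. In MFH1NR 10 were higher and 3 lower, against 19.3% and 21.6%, and the median log2 ratios were 0.52 and 1.09, where all genes had 0.11 and 0.02. Alx1, a craniofacial mesenchyme gene, had 6.63, 2808 and 84.3, with bounds of at least 6.89 and at least 1.47 on the log2 scale. Emx2, of forebrain and urogenital tissue, had 217 in MSCs, 6.0 in COS1NR, not well above background, and 3196 in MFH1NR. Alx1 was thus bright in COS1NR and Emx2 in MFH1NR. Vax2, a gene of the ventral eye, had 67.2, 1620.2 and 3811, and Hhex 35.4, 356 and 343, both higher in both sarcomas. Cdx2, an upstream activator of posterior Hox genes in the embryo, had 4.59 in MSCs, not well above background, 50.4 in COS1NR and 178 in MFH1NR.

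Skeletal and limb patterning genes were a list of 37, with 30 named and 26 used. Of these, 5 were at least 2-fold higher and 10 lower in COS1NR than in MSCs, against 20.6% and 20.0% of all genes, and 9 were higher and 8 lower in MFH1NR, against 19.3% and 21.6%. Their median log2 ratios were -0.45 and 0.39, where all genes had 0.11 and 0.02. Bmp2, a bone morphogenetic protein upstream of Msx and Dlx genes, had 734, 460.2 and 28448, with log2 ratios to MSCs of -1.07 and 4.52. Hand2, a limb polarity factor, had 4.77, 191 and 289, with log2 bounds of 3.02 and 3.25. Twist1, which restrains osteoblast maturation, had log2 ratios of 1.79 and 1.34. Eya2, a cofactor of Six4 and its relatives, had 842, 276 and 113, with log2 ratios to MSCs of -2.00 and -3.66. Ibsp, a late osteoblast matrix gene, had log2 ratios to MSCs of -3.82 and -7.43.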

How the data were processed

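RNA of MSCs, COS1NR and MFH1NR was hybridized to 1 Agilent 1-colour whole rat genome array per cell type. The deposited intensity values came from Agilent Feature Extraction as run by the authors (version 9.1 in the submitters' notes, 10.5.1.1 in the file headers), which subtracted the background and detrended each array without scaling between arrays. The deposited series table held the same values. Kits for RNA isolation and labeling differ between labels and methods. Array annotation used build rn4, so no probe coordinates are given.

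Here, controls and spots called outliers (187 to 217 an array) were left out, which removed 196 of 41012 probes. Log2 intensities were taken relative to the 75th percentile of each array. Probes were named through RefSeq accessions (16745 probes, 13301 genes measured), the probe with the highest mean over arrays stood for its gene, and 10010 genes well above background on at least 1 array were used. For a bound, the brighter value was divided by the dim value or, where that was smaller, by the limit set by the dimmest spot well above background (17.9 in MSCs, 29.4 in COS1NR, 30.1 in MFH1NR). Genes past 2-fold were counted without a test, since the number of arrays limits the precision. Between 2 probes of a gene the log2 ratios differed by medians of 0.28 (COS1NR against MSCs), 0.32 (MFH1NR against MSCs) and 0.15 (MFH1NR against COS1NR).

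Members, gene lists and settings were chosen with earlier results of these data known. Values on each array are given for members at least 4-fold apart between any 2 arrays (24) and for those above background on all arrays at less than 2-fold (3), other members are named by pattern, and genes of other lists at least 4-fold apart may be named. Some of these genes are not reported here, though counts and medians include them. Marker lists covered macrophage, fibroblast and mesenchymal, osteoblast, adipocyte, skeletal muscle, endothelial, erythroid, neutrophil, B and T cells, and further lists other homeobox genes, regulators of Hox genes and skeletal genes. Promoters came from a RefSeq table (GRCr8), and for Meis3, which has several windows, the first was used. Alternatives were quantile normalization, median scaling, no scaling, a floor, the series table, the mean of probes or the second probe, stricter and no filters, another detection call and a 3-fold threshold. Added after the data were seen were normexp (offset 50) on median spot intensities, in place of the planned one on the mean spot intensity, which was not in the files used, own intensities in place of bounds, and outlier spots kept. The counting step was tested on simulated data of 13301 genes for COS1NR against MSCs with noise of 0.3 in log2, which recovered 100% of 200 genes changed by 3 in log2 and called 71 others. Python 3.11.15, numpy 2.4.6, pandas 2.3.3, matplotlib 3.10.9, R 4.3.3 and limma 3.58.1 were used.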

Additional observations from a re-analysis of the deposited data

Results flagged for a closer look

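Six4 moved in opposite directions in the sarcomas, with a log2 ratio to MSCs of 1.33 in COS1NR and a bound of -2.93 in MFH1NR, and with 1 array each this difference was not tested. Its second probe was not well above background on any array. With the mean of both probes the ratios were 0.74 and -0.53, under 2-fold. The Hoxd10 spot on MFH1NR, left out as non-uniform, had an intensity of 172.6, and the gene stood at 154 in COS1NR and at 3.95 in MSCs. A second probe of Tbx5 had 296.7 in COS1NR at a spot left out as non-uniform, against 7.96 in MSCs, and it was not well above background in MFH1NR.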

How the results depend on the processing

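No paired analysis was possible because each cell type had 1 array, and for the same reason no array could be left out. No member past 2-fold changed its direction under any setting run. Of 69 member ratios past 2-fold, the series table, the floor, quantile normalization, own intensities in place of bounds and outlier spots kept lost 0, median scaling lost 1, the mean of all probes 2 and no scaling 3. Ratios under 2-fold that passed it numbered 8 with no scaling, 6 with own intensities, 2 each with median scaling and quantile normalization, and 1 with the mean of all probes. Normexp lost 11 of 68. The cause was not tested. Counts moved with the filter. With genes well above background on all 3 arrays, which leaves 16 of the 37 members, those at least 2-fold higher and lower numbered 7 and 3 (15 and 9 as reported) for COS1NR against MSCs, 5 and 4 (11 and 12) for MFH1NR against MSCs, and 4 and 4 (9 and 13) for MFH1NR against COS1NR. Without a filter, which takes in all 61 measured members, those higher than in MSCs numbered 24 in COS1NR and 18 in MFH1NR, and 20 were lower in MFH1NR than in COS1NR. Shares over all genes were not counted under these filters, so whether members still exceed them is not shown. Members higher in MFH1NR than in MSCs numbered 7 with a 3-fold threshold and 7 with normexp. The median log2 ratio of COS1NR to MSCs, 0.90 as reported, was 1.29 without scaling, 1.06 with median scaling, 1.01 with quantile normalization, 0.74 on all 3 arrays, 0.43 without a filter and 0.37 with normexp. That of MFH1NR to MSCs, 0.04, was 1.06, 0.26, 0.24 and 0.30 in the first 4 of these, 0.30 with outlier spots kept, and turned to -0.0046 without a filter and -0.36 with normexp. That of MFH1NR to COS1NR, -0.31, was -0.24 with normexp and turned to 0.052 without scaling and 0.065 on all 3 arrays. The mean of all probes turned Tbx18 in COS1NR against MSCs from -0.53 to 0.97. Counting spots positive and significant over background instead gave 38, 47 and 39 members in MSCs, COS1NR and MFH1NR, against 25, 29 and 25.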

Other observations

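Of 5 named T cell markers, Cd3d and Lck were used and Cd3d had 452, 893 and 627 in MSCs, COS1NR and MFH1NR, while Cd3e, Cd3g and Cd5 were not well above background on any array. Of 3 named B cell markers Blnk was used and was lower in both sarcomas, with 382 in MSCs, 123 in COS1NR and 96.5 in MFH1NR. Of 4 named neutrophil markers 2 were used, with S100a8 at 292 in COS1NR and Camp at 160 in MSCs and 219 in COS1NR. Of 3 erythroid markers, Klf1 and Epor were well above background on all arrays at intensities of 97.4 or lower. Of 5 named endothelial markers 2 were used, and Kdr had 306 in MSCs, 78.8 in COS1NR and 80.8 in MFH1NR. Of 5 skeletal muscle markers 4 were used, with 1471, 1047 and 196 for Des and 292, 902 and 2496 for Acta1 in this order, while Myog was well above background in MFH1NR alone, at 58.7.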
